A study of Mus musculus with 16 samples.

Results

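The proteasome genes of N25/2 cells were examined without and with amino acids in the medium. They were taken by symbol, as every gene whose name starts with Psma, Psmb, Psmc, Psmd, Psme, Psmf or Psmg, and 50 of the 19938 genes measured under 1 symbol met this rule. N25/2 is an immortalized line from the embryonic mouse hypothalamus, grown in DMEM with fetal bovine serum and antibiotics. Whole-transcript arrays were run on 8 samples held in medium without amino acids (deprived) and 8 held in medium with them (control), for 1, 2, 3, 5 or 16 h. There were 4 deprived and 4 control arrays at 5 h and 1 of each at the other times, so those other times had no replicate check. The series asks, by its title, how solute carrier transporters respond to amino acid starvation, and the proteasome is a different set of genes read from the same arrays. How the line was immortalized and whether serum stayed in the treatment medium are not given in the sources used here.

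The proteasome is the large protease that breaks down proteins tagged with ubiquitin and returns their amino acids to the cell. Its 20S core is a barrel of α rings, which gate the entry, around β rings, which hold the protease sites. The 19S cap recognizes ubiquitin, and its ATPase ring unfolds the substrate and feeds it into the barrel. Other caps (the activators of the PA28 and PA200 type), inhibitors and assembly chaperones adjust how much active enzyme there is. In mammalian cells the transcription factor Nfe2l1 (NRF1) is known to raise the genes of the subunits together when proteasome activity is short.

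Values are log2 units, differences are deprived minus control, and errors are the standard deviation (SD) of a group or the standard error (SE) of a difference fitted by limma. Array medians lay between 7.02 and 7.12. As a check of the labelled cell type, the progenitor markers Sox2 (mean 10.69) and Nes (10.34) and the neuronal marker Stmn2 (12.25) were high. The progenitor marker Pax6 (5.96) and the neuronal markers Tubb3 (5.95), Snap25 (6.41), Rbfox3 (6.47), Syp (6.77), Nefl (5.22) and Nefm (4.91) lay below the median gene (7.47). The progenitor markers Notch1 (8.21) and Hes1 (8.68) and the neuronal markers Map2 (9.54), Eno2 (9.32) and Syn1 (7.87) lay above it. Of 11 hypothalamic peptide genes only Oxt (8.31) was above that median. Vim (13.7), Col1a1 (12.03) and Pdgfrb (11.61), which mesenchymal cells express, were high. Of the same list Col1a2 (8.0) and Col3a1 (7.58) lay above the median gene and Thy1 (6.73) below it. The oligodendrocyte markers Mbp (7.24), Mog (6.44), Sox10 (7.25) and Olig2 (6.57) were below it. Of the 6 astrocyte markers Slc1a3 (11.74) and Gja1 (10.38) were high. Gfap (6.31), Aqp4 (6.22), S100b (5.77) and Aldh1l1 (6.54) lay below the median gene. Of 6 microglial or leukocyte markers, Cd68 (9.08) and Cx3cr1 (7.65) lay above the median gene, and Ptprc (5.51) did not. Of the 50 proteasome genes, 46 had a mean above the median level of all genes. The exceptions were Psma8, the α subunit of testis (mean 5.16), Psmb8 (5.92), Psmb11 (6.35) and Psmg3 (7.08).

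After 5 h without amino acids most proteasome genes stayed within 0.25 of control, and a single one passed the test. Psmc6, an ATPase of the 19S ring, rose 1.40-fold, and no member was called lower in the reported fit, which used no pairing. That is 1 of 50 members higher, where 2.41% of all genes were called higher, and 0 of 50 lower, where 1.7% were called lower (limma, adjusted p below 0.05 over all genes). In either direction 2% of members and 4.11% of all genes were called. At an unadjusted p below 0.05 the counts were 1 higher (2%, against 6.57% of all genes) and 5 lower (10%, against 7.17%). Of the 9969 genes above the median level 1177 were higher and 1276 lower at that p. When same-numbered arrays of both groups were treated as pairs, 7 members were called lower (14%, against 10% of all genes). In that fit 1783 of the 9969 genes above the median level were called lower. Some settings without pairing also called members lower, 3 after another quantile normalization, 5 without both arrays numbered 4 and 12 with array weights. In either direction these settings called 8%, 12% and 28% of members, against 6.16%, 13.5% and 27.5% of all genes. The pairs correlated, but without number 4 the correlations were only 0.193, -0.003 and -0.2. The difference was within 0.25 for 43 of 50 members (86%), against 85.5% of all genes and 74.4% of genes above the median level. At 16 h, on 1 array per group, 29 of 50 lay within 0.25 (58%, against 61.0% of all genes and 39.7% of genes above the median level). There Psme1, a subunit of the PA28 activator, was 1.36 lower in deprived cells, and Psmg2, a chaperone of α ring assembly, was 0.73 higher. In RNA pooled from many cells, fewer cells with a transcript and less of it per cell cannot be told apart.

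**Figure D1:**
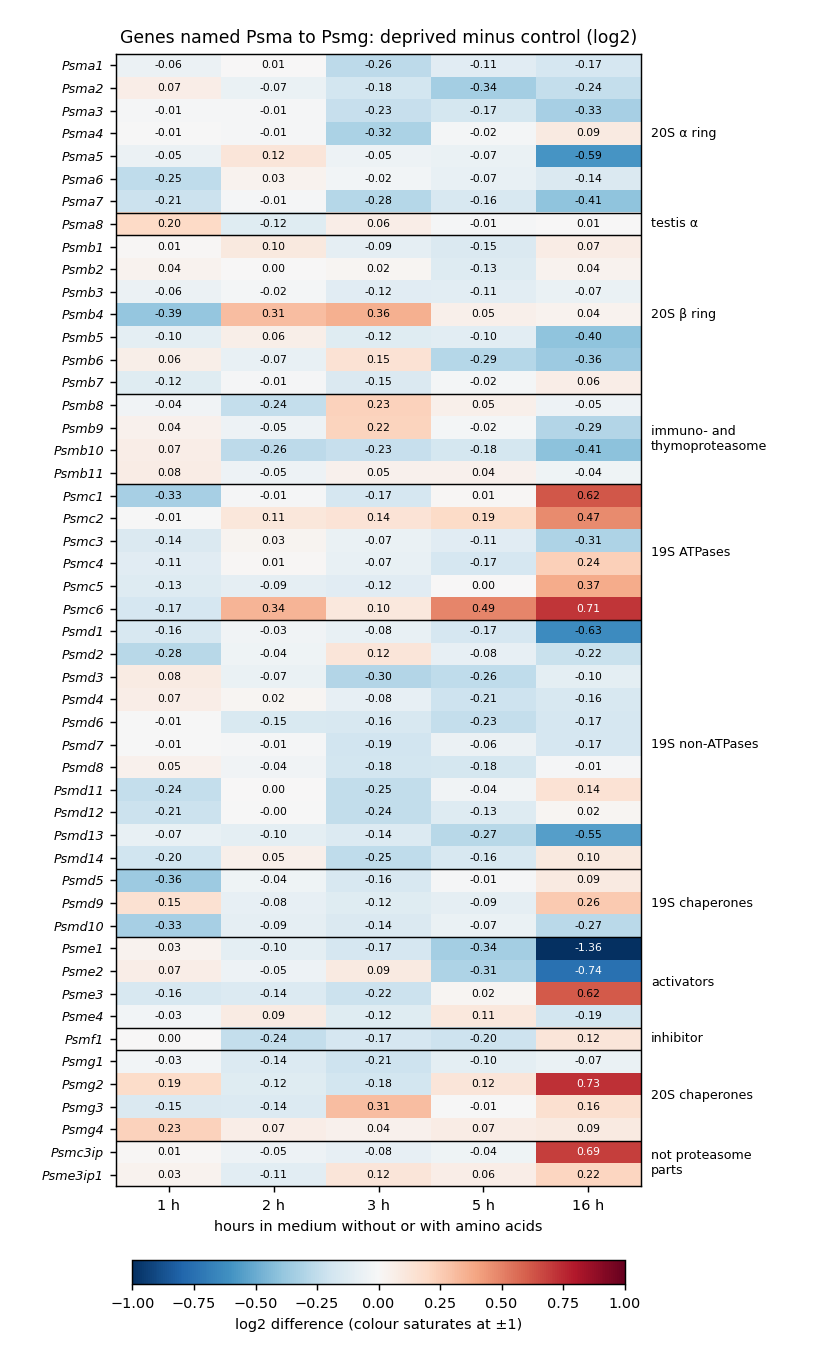
Log2 difference, deprived minus control, of each of the 50 genes (rows, grouped by role) at 1, 2, 3, 5 and 16 h (columns), with 4 arrays per group at 5 h and 1 per group at the other times; red is higher in deprived cells, blue is lower, and the colour saturates at 1. The widest values stand in the 16 h column, at -1.36 for Psme1 and 0.73 for Psmg2.

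Psmc6 was the one member past the threshold. Its 4 deprived arrays of 5 h read 11.25, 11.28, 11.26 and 11.50, and its 4 control arrays read 10.90, 10.86, 10.66 and 10.92. All deprived arrays lay above all control arrays, and deprived array 4 stood above the other deprived arrays. The means were 11.33 ± 0.12 in deprived cells and 10.84 ± 0.12 in control cells (SD, n = 4 each), a difference of 0.49 (SE 0.09, limma adjusted p = 0.0161). The call was lost without deprived array 2 (difference 0.50, limma adjusted p = 0.051) and without control array 2 (0.50, adjusted p = 0.0565). Over all settings tried its adjusted p in limma ran between 3.56e-05 and 0.0565. At the times with 1 array per group, Psmc6 read 10.79 in deprived and 10.95 in control cells at 1 h, 11.20 and 10.86 at 2 h, 11.24 and 11.13 at 3 h, and 11.54 and 10.82 at 16 h. The deprived array was thus the lower one at 1 h and the higher one at 2, 3 and 16 h.

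The promoter of Psmc6 is shown because it belongs to the member that passed. RefSeq places it at chr14:45329574-45329873 (GRCm38.p6, plus strand), reaching 250 bases before and 50 after the start of the gene. Capitals mark the match to TGACNNNGC, the core of the antioxidant response element that Nfe2l1 and its Maf partners bind; the match lies on the opposite strand, so the capitals show its complement in reverse.
Psmc6 promoter: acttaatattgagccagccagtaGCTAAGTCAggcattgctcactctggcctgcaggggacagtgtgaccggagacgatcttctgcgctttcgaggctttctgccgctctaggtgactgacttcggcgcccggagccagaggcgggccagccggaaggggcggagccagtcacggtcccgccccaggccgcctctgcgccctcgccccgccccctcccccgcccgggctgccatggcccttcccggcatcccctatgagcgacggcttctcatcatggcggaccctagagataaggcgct
Promoters of 42 of the 50 members were in the RefSeq table, and TGACNNNGC, searched on both strands, was in 6 of them (14.3%), against 14% of 27025 genes. Besides Psmc6, the members with a match were the β subunits Psmb5 and Psmb6, the cap subunit Psmd12, the assembly chaperone Psmd9 and the activator Psme4. Of these only Psmc6 passed the test at 5 h. The matches of Psmb5, Psmb6, Psmd9 and Psme4 are shown with 10 bases on each side, on the strand that reads TGACNNNGC, with the match in capitals.
Psmb5 (chr14:54618024-54618052, minus strand): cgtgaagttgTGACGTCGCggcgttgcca
Psmb6 (chr11:70525338-70525366, plus strand): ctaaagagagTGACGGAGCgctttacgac
Psmd9 (chr5:123228149-123228177, plus strand): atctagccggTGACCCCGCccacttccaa
Psme4 (chr11:30771758-30771786, minus strand): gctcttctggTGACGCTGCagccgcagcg
The motif TGATGNAA, a form of the element that Atf4 binds with C/EBP factors, was in 1 of 42 members' promoters (Psmd13), or 2.38%, against 4.51% of genes. CCAAT, the box of the factor NF-Y, was in 16 (38.1%), against 41.1%. None of these motifs contains another, their shares were not tested, and a match of letters does not show a bound site.

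The other ATPases of the 19S ring did not pass at 5 h. Their differences ran from -0.17 for Psmc4 to 0.19 for Psmc2, with 0.00 for Psmc5, 0.01 for Psmc1 and -0.11 for Psmc3. Psmc2 read 9.60, 9.62, 9.53 and 9.99 on the deprived arrays and 9.50, 9.29, 9.24 and 9.96 on the control arrays, so the groups overlapped (SE 0.17, limma adjusted p = 0.85). All 6 ATPase genes were highest on array 4 in both groups. At 16 h, 5 of the 6 were higher on the deprived array, by 0.71 for Psmc6, 0.62 for Psmc1, 0.47 for Psmc2, 0.37 for Psmc5 and 0.24 for Psmc4, and Psmc3 was lower by 0.31. The median of the ATPases at 16 h was 0.42, against -0.04 for all genes. The Psmc1 row used here lies among rows of chromosome 16, whereas the gene is on chromosome 12, so it may read a near-identical copy; the row among chromosome 12 neighbours gave 0.43 at 16 h.

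The α ring genes Psma1 to Psma7 code for the gate of the 20S barrel. All 7 had differences below 0 at 5 h, with a median of -0.11, and none passed the test. Psma2 had the widest one. It read 9.45, 9.47, 9.56 and 10.29 in deprived cells and 9.86, 9.88, 9.77 and 10.61 in control cells. Each deprived array was below the control array of its number, while array 4 was far above the others in both groups and made the groups overlap. The difference was -0.34 (SE 0.23, limma adjusted p = 0.701). With the replicate number as a block the adjusted p in limma was 0.0034, and over all settings it ran between 0.0025 and 1. Psma4 had the smallest difference, -0.02. Psma3 read 11.39, 11.44, 11.49 and 11.57 in deprived cells, all below the control arrays at 11.58, 11.71, 11.58 and 11.72. Its difference was -0.17 (SE 0.08, limma adjusted p = 0.342). The Psma3 row used lies among rows of chromosome 6 while the gene is on chromosome 12, and the 2 other rows of the gene gave -0.18 and -0.17 at 5 h. All 7 α ring genes were highest on array 4 in both groups. At 16 h 6 of the 7 were lower on the deprived array, from -0.59 for Psma5 to -0.14 for Psma6, and Psma4 was 0.09 higher. The other row of Psma5 gave -0.33 at 16 h.

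Psma8, whose product replaces Psma7 in the testis proteasome, differed by -0.01 at 5 h. Its 1 h difference, 0.20, was among the 3 highest of the members at that time. It rests on 1 array per group of a gene at a low level (mean 5.16). The control arrays of 5 h alone ran from 4.93 to 5.35.

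Among the β ring genes, which hold the protease sites, 6 of 7 differences were below 0 at 5 h, with a median of -0.11, and none passed. Psmb5, Psmb6 and Psmb7 code for the chymotrypsin-like, caspase-like and trypsin-like sites. Psmb6 read 10.02, 9.93, 9.92 and 10.46 on the deprived arrays and 10.25, 10.26, 10.11 and 10.86 on the control arrays. Every deprived array was below its numbered control, and array 4 was the highest of each group, so the groups overlapped. The difference of -0.29 (SE 0.18) had an adjusted p of 0.627 in limma and 0.0084 with the replicate block, within a range of 0.0056 to 0.958 over all settings. Psmb5 differed by -0.10 (SE 0.07) and Psmb7 by -0.02 (SE 0.07). At 16 h Psmb5 was 0.40 lower, Psmb6 0.36 lower and Psmb7 0.06 higher on the deprived array.

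Psmb4, a β subunit without a protease site, had the widest differences of any member at 1 and 3 h, and they had opposite signs. It read 10.58 in deprived and 10.96 in control cells at 1 h, 11.51 and 11.20 at 2 h, and 11.97 and 11.61 at 3 h. The 5 h arrays show its spread within a group, at 10.90, 11.36, 10.79 and 12.07 in deprived cells and 11.16, 10.88, 10.68 and 12.18 in control cells. The differences of -0.39, 0.31 and 0.36 at the early times were thus smaller than the range of either group at 5 h. Psmb3 differed by -0.11 at 5 h; its row lies among rows of chromosome 16 while the gene is on chromosome 11, where the other row gave -0.20.

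The immunoproteasome genes Psmb8, Psmb9 and Psmb10 code for the protease subunits that interferon gamma brings in place of the usual β subunits, and Psmb11 for the subunit of the thymus. None of the 4 passed at 5 h. Psmb10 read 7.43, 7.39, 7.53 and 7.77 in deprived cells and 7.71, 7.59, 7.67 and 7.86 in control cells, overlapping groups with a difference of -0.18 (SE 0.10, limma adjusted p = 0.576). Psmb8 differed by 0.05, Psmb9 by -0.02 and Psmb11 by 0.04. At 2 h Psmb10 (-0.26) and Psmb8 (-0.24) were among the 3 lowest differences, and at 3 h Psmb8 (0.23) was among the 3 highest. Psmb8 lay at a low level (mean 5.92), and its deprived arrays of 5 h alone ran from 5.81 to 6.12. At 16 h Psmb10 was 0.41 lower, Psmb9 0.29 lower, Psmb8 0.05 lower and Psmb11 0.04 lower on the deprived array.

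The 11 non-ATPase subunits of the 19S cap were all below 0 at 5 h. Their differences ran from -0.27 for Psmd13 to -0.04 for Psmd11, with a median of -0.17, against -0.01 for all genes, and none passed the test. Psmd13, a subunit of the lid of the cap, read 10.06, 9.99, 10.13 and 10.06 in deprived cells and 10.28, 10.28, 10.27 and 10.51 in control cells. Every deprived array was below every control array, and control array 4 stood above the other controls. The difference was -0.27 (SE 0.08) with a limma adjusted p of 0.112. It was 0.0149 with the replicate block, and the range over all settings was 0.0036 to 0.291. Psmd13 was 0.55 lower on the deprived array at 16 h, where that array was the lowest of all 16 at 9.74.

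Psmd3 and Psmd6 are further subunits of the lid. Psmd3 read 9.76, 9.71, 9.65 and 9.97 in deprived cells and 10.04, 9.93, 9.92 and 10.22 in control cells, lower in each numbered pair with overlap between the groups. Its difference was -0.26 (SE 0.10), with a limma adjusted p of 0.268, of 0.0103 with the replicate block, and between 0.0063 and 0.604 over all settings. Psmd6 read 9.74, 9.66, 9.72 and 10.45 in deprived cells and 9.97, 9.99, 9.80 and 10.75 in control cells, also lower in each pair. Array 4 was the highest of each group. Its difference was -0.23 (SE 0.23), with a limma adjusted p of 0.911, of 0.0266 with the block, and between 0.0232 and 1 over all settings.

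Psmd4, the ubiquitin receptor of the cap, differed by -0.21 at 5 h (SE 0.22) and Psmd14, which cuts ubiquitin chains off the substrate, by -0.16 (SE 0.10). At 16 h Psmd1, a scaffold subunit, read 11.34 in deprived and 11.96 in control cells, a difference of -0.63. Its control array 4 at 5 h, at 12.45, stood above the other control arrays, and its difference at 5 h was -0.17. At 3 h Psmd3 (-0.30), Psma4 (-0.32) and Psma7 (-0.28) were the 3 lowest differences of the members.

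The assembly chaperones of the 19S base are Psmd5, Psmd9 and Psmd10. Psmd9 read 8.30, 8.30, 8.26 and 8.29 in deprived cells and 8.39, 8.38, 8.34 and 8.40 in control cells. The groups did not overlap, but the difference was small, at -0.09 (SE 0.06, limma adjusted p = 0.719), and at 16 h the deprived array was 0.26 higher. Psmd5 differed by -0.01 and Psmd10 by -0.07 at 5 h. At 1 h Psmd5 was 0.36 lower and Psmd10 was 0.33 lower on the deprived array.

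Among the activators, Psme1 and Psme2 had differences of -0.34 and -0.31 at 5 h, and neither passed in the reported fit. Both passed once same-numbered arrays were paired. They also passed in the unblocked fits with array weights and without the arrays numbered 4. Both code for the subunits of PA28αβ, an interferon-induced cap of the 20S core known for its part in making antigenic peptides. Psme1 read 9.34, 9.46, 9.29 and 9.45 on the deprived arrays of 5 h and 9.66, 9.56, 9.67 and 9.99 on the control arrays. All deprived arrays were below all control arrays. The means were 9.38 ± 0.08 in deprived cells and 9.72 ± 0.18 in control cells (SD, n = 4 each), a difference of -0.34 (SE 0.10, limma adjusted p = 0.124). It passed in limma with the replicate block (adjusted p = 0.0087), without both arrays numbered 4 (0.0301), after a further quantile normalization (0.0299) and with array weights (0.0069), and the range over all settings was 0.0069 to 0.327.

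Psme2 read 10.28, 10.13, 10.27 and 10.79 in deprived cells and 10.42, 10.52, 10.58 and 11.18 in control cells at 5 h. Each deprived array was below its numbered control, and array 4 was the highest of each group, so the groups overlapped. The difference was -0.31 (SE 0.19), with a limma adjusted p of 0.614, of 0.0065 with the replicate block, of 0.0259 without both arrays numbered 4, and between 0.0065 and 0.913 over all settings. At 16 h Psme1 read 8.79 in deprived and 10.15 in control cells, and Psme2 read 10.14 and 10.89. The deprived value of Psme1 was the lowest of its 16 arrays and its control value at 16 h was the highest of them. A row that names Psme2b together with Psme2, and so was not counted as a member, was 0.30 lower at 5 h and 0.69 lower at 16 h. Psme1 is shown with its promoter, at chr14:55578244-55578543 (GRCm38.p6, plus strand), because it had the widest difference of any member. Capitals mark GAAA repeated with 2 bases between, the core of the element that interferon regulatory factors bind, which lies on the opposite strand and so shows as its complement in reverse.
Psme1 promoter: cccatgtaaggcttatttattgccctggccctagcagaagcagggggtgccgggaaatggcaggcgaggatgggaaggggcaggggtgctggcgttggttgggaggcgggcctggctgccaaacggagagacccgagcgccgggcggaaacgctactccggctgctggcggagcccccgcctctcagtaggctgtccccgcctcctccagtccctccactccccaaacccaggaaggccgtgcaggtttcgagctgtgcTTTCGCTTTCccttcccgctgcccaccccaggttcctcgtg
This motif, searched on both strands, was chosen after the values were seen. It was in the promoters of 5 of 42 members (11.9%), which were Psmb3, Psmd4, Psmd9, Psme1 and Psmg4, against 3.99% of genes, and the difference in share was not tested. Psme2 had no match in its promoters. The matches of Psmb3 and Psmg4, shown to compare with that of Psme1, share the capitals GAAAGTGAAA.
Psme1 (chr14:55578493-55578522, minus strand): agcgggaaggGAAAGCGAAAgcacagctcg
Psmb3 (chr11:97703261-97703290, minus strand): atggaaagcgGAAAGTGAAAagtcactgtg
Psmg4 (chr13:34162969-34162998, plus strand): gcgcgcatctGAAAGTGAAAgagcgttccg
At 5 h the differences of Psmb3 (-0.11) and Psmg4 (0.07) had opposite signs.

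Psme3, which codes for the nuclear activator PA28γ, had no such difference at 5 h. It read 12.24, 12.13, 12.17 and 11.87 in deprived cells and 12.25, 12.20, 12.15 and 11.75 in control cells at 5 h, a difference of 0.02 (SE 0.13). At 16 h it read 12.55 in deprived and 11.94 in control cells. Psme4, which codes for the activator PA200, differed by 0.11 at 5 h and by -0.19 at 16 h. Its arrays numbered 4 stood at 11.47 in deprived and 11.43 in control cells, while the other arrays lay between 10.76 and 10.88 in deprived and between 10.69 and 10.74 in control cells. The inhibitor Psmf1 (PI31) read 10.25, 10.12, 10.22 and 9.98 in deprived cells and 10.49, 10.34, 10.23 and 10.32 in control cells, with overlap by 1 array. The difference was -0.20 (SE 0.09, limma adjusted p = 0.348), with -0.24 at 2 h and 0.12 at 16 h.

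**Figure D2:**
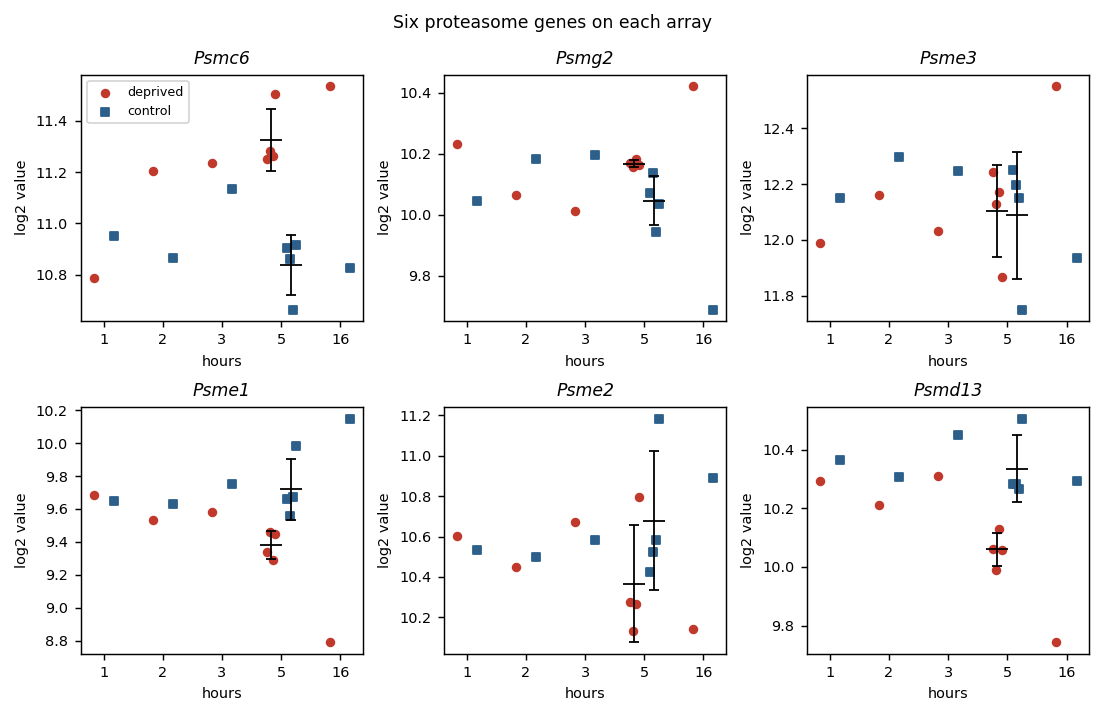
Log2 values of Psmc6, Psmg2, Psme3, Psme1, Psme2 and Psmd13 on each array against hours; red circles are deprived and blue squares control arrays, and bars at 5 h are the mean ± SD of 4 arrays. Psmc6, Psmg2, Psme1 and Psmd13 had groups that did not overlap at 5 h, and Psme3 differed at 16 h (12.55 deprived, 11.94 control) with overlapping groups at 5 h.

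The chaperones Psmg1 to Psmg4 build the α ring, as pairs of Psmg1 with Psmg2 and of Psmg3 with Psmg4. Psmg2 read 10.17, 10.16, 10.18 and 10.16 in deprived cells and 10.07, 10.14, 9.94 and 10.04 in control cells at 5 h. The groups did not overlap, with a difference of 0.12 (SE 0.07, limma adjusted p = 0.581). At 16 h Psmg2 read 10.42 in deprived and 9.69 in control cells, the highest and the lowest of its 16 arrays. Its partner Psmg1 differed by -0.10 at 5 h and -0.07 at 16 h. Psmg3 differed by -0.01 and Psmg4 by 0.07 at 5 h, and by 0.16 and 0.09 at 16 h. At 3 h Psmg3 (0.31) was among the 3 highest differences of the members, and at 1 h Psmg4 (0.23) and Psmg2 (0.19) were.

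Both symbols that the naming rule takes without being proteasome parts are Psmc3ip, a meiotic recombination factor, and Psme3ip1, a protein that binds PA28γ. Psmc3ip differed by -0.04 and Psme3ip1 by 0.06 at 5 h. At 16 h Psmc3ip read 8.62 in deprived and 7.93 in control cells, a difference of 0.69. Without both, the counts of members called at 5 h stayed at 1 higher and 0 lower.

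At 5 h the groups did not overlap for 2 members higher in deprived cells, Psmc6 and Psmg2, where 5.15% of all genes were so, and for 4 lower, Psma3, Psmd13, Psmd9 and Psme1, where 5.38% were. Above the median level 925 of 9969 genes were so upward and 926 downward. In the 4 pairs of arrays with the same number, 21 members were lower on every deprived array, against 19.3% of all genes, and 4 were higher on every one, against 15.3%. With the replicate number as a block, 1 member was higher (8.22% of all genes) and 7 were lower (10% of all genes). The 7 were Psma2, Psmb6, Psmd3, Psmd6, Psmd13, Psme1 and Psme2. Of the 9969 genes above the median level 1472 were higher and 1783 lower with the block. Without both arrays numbered 4, Psmc6 was again higher (6.34% of all genes) and Psma2, Psmb6, Psmd3, Psme1 and Psme2 were lower (7.17%). There 1138 of the 9969 genes above the median level were higher and 1305 lower. Of the 50 differences 38 were below 0 (76%), against 55.4% of all genes and 55.1% of genes above the median level. With each array centred on its median, 32 were (64%), against 44.9%. Whether the members' shares differ from those of all genes was not tested.

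The arrays numbered 4 stood apart for proteasome genes, as for many other genes. In both groups 31 of 50 members (62%) were highest on array 4, against 28.3% of all genes and 49.7% of genes above the median level. A further 7 members (14%) were lowest on array 4 in both groups, against 39.8% of all genes and 23.3% of genes above the median level. The median deviation of the members from their own mean over the 8 arrays was 0.12 on deprived array 4 and 0.27 on control array 4. It was between -0.11 and -0.09 on the other deprived arrays and between -0.07 and 0.01 on the other control arrays. The median member difference was -0.15, -0.09, -0.02 and -0.12 in pairs 1 to 4. What sets array 4 apart was not tested, and the sources used here do not say what the numbers mark.

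**Figure D3:**
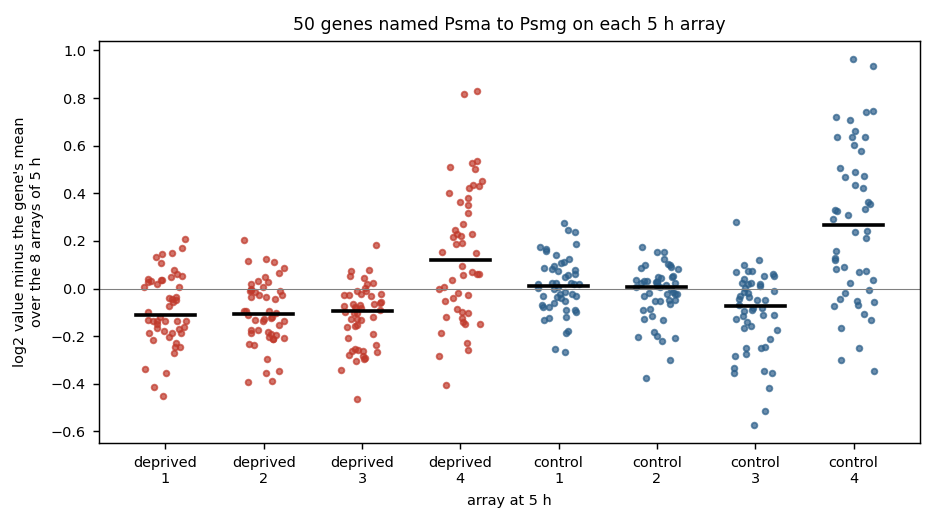
Log2 value of each of the 50 genes minus its own mean over the 8 arrays of 5 h, for deprived arrays 1 to 4 (red, left) and control arrays 1 to 4 (blue, right); black lines are medians over the genes. The medians on both arrays numbered 4 (0.12 deprived, 0.27 control) are above those of the other arrays, which lie at or below 0.01.

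At 1, 2 and 3 h no member reached a difference of 0.5 in either direction. At least 0.5 was reached by 0.226% of all genes upward and 0.557% downward at 1 h, by 0.787% and 0.978% at 2 h, and by 0.843% and 1.1% at 3 h. The median over the members was -0.03 at 1 h, -0.04 at 2 h and -0.12 at 3 h, against 0.01, -0.01 and 0.02 over all genes. At 3 h 36 of 50 differences were below 0 (72%, against 45.7% of all genes and 60.9% of genes above the median level), including all 7 α ring genes and 10 of 11 non-ATPases. At 2 h the highest differences were those of Psmc6 (0.34), Psmb4 (0.31) and Psma5 (0.12), and the lowest those of Psmb10, Psmb8 and Psmf1.

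At 16 h, 5 members were at least 0.5 higher on the deprived array, where 9.36% of all genes and 16.9% of genes above the median level were. A further 5 were at least 0.5 lower, where 8.99% of all genes and 16% of genes above the median level were. The 5 higher were Psmg2 (0.73), Psmc6 (0.71), Psmc3ip (0.69), Psmc1 (0.62) and Psme3 (0.62). The 5 lower were Psme1 (-1.36), Psme2 (-0.74), Psmd1 (-0.63), Psma5 (-0.59) and Psmd13 (-0.55). A difference of 1 was passed by Psme1 alone among the members, downward (2.97% of all genes), and by no member upward (1.96% of all genes). The deprived array of 16 h held the lowest of the 16 values for 9 members, with 12.6% among all genes, and the highest for 7, with 12.8%. Of the 9969 genes above the median level it held the lowest value for 2116 and the highest for 1811. The median member difference was -0.05, against -0.04 for all genes. With centred arrays it was 0.04, against 0.05. On the same arrays all 6 mesenchymal markers were lower in deprived cells, with a median of -0.62, as were all 5 progenitor markers, with a median of -0.54. Of the astrocyte markers 5 of 6 were lower, with a median of -0.40 and a lowest value of -2.49, and of the neuronal markers 9 of 10, with a median of -0.15. All 4 oligodendrocyte markers were lower (median -0.14), as were 7 of 11 hypothalamic peptide genes (-0.04) and 3 of 6 microglial or leukocyte markers (-0.02). Among all genes 56.2% were lower, and among those above the median level 48.8%. The part of these markers in the values of the proteasome genes was not tested.

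The difference at 16 h was set against that at 5 h in limma. With 1 array per group at 16 h, the spread comes from the 5 h arrays alone and the 16 h arrays are assumed to vary like them, so the test says nothing about the spread at 16 h. Under that assumption 0 members passed, where 0.988% of all genes did, and 3 members (6%) had an unadjusted p below 0.05, where 9.99% of all genes did. The lowest adjusted p was that of Psme1, at 0.0848, for a change of -1.02 (SE 0.23) between the 2 differences. For Psmg2 the change was 0.61, with a limma adjusted p of 0.144. The mean difference over 1, 2, 3 and 16 h, tested in limma with a term for each time, passed for 0 members and for 0% of all genes, with 0 members higher and 2 lower (4% in either direction, against 6.24% of all genes) at an unadjusted p below 0.05.

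Regulators and partners of the proteasome outside the family were read for comparison. Of 27 measured genes of this list, 3 rose at 5 h and none fell, with a median of 0.01, where 2.41% of all genes were called higher and 1.7% lower. The replicate block gave 7 higher and 5 lower, where 8.22% and 10% of all genes were so called. The 3 were Nfe2l1 itself and the partner genes Mafk and Mafg. Without Nfe2l1, Nfe2l2, Keap1 and the Maf genes, 21 genes of the list were left. None of these was called at 5 h, and their median was -0.09. With the block 2 of them were higher and 4 lower. Nfe2l1 read 11.74, 11.66, 11.59 and 11.75 in deprived cells and 11.05, 10.93, 10.93 and 11.07 in control cells, with no overlap. The difference was 0.70 (SE 0.08, limma adjusted p = 0.0010), and at 1, 2, 3 and 16 h it was -0.03, 0.22, 0.58 and 0.59.

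Mafk and Mafg code for small Maf proteins, which bind DNA together with Nfe2l1 or Nfe2l2. Mafk rose by 0.61 (SE 0.10, limma adjusted p = 0.0078), with deprived arrays between 9.00 and 9.26 and control arrays between 8.36 and 8.64. Mafg rose by 0.70 (SE 0.15, limma adjusted p = 0.027), with deprived arrays between 10.01 and 10.70 and control arrays between 9.50 and 9.85. The call of Mafg was lost on leaving out any 1 array numbered 1 to 3 of either group, with an adjusted p of up to 0.0962, as it was after another quantile normalization (0.0654) and with unnamed rows included (0.0516). Maff, a further small Maf gene, differed by 0.79 (SE 0.22, adjusted p = 0.0967) and by 1.59 at 16 h, and Nfe2l2 by 0.29 (SE 0.08, adjusted p = 0.0766) and by 0.26 at 16 h. At 1 and 2 h both were lower on the deprived array, Maff by 0.29 and 0.87 and Nfe2l2 by 0.47 and 0.52; at 3 h Maff differed by 0.23 and Nfe2l2 by -0.02. At 5 h Maff and Nfe2l2 passed in limma with the replicate block, at 6.52e-05 and 0.009.

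Pomp codes for the chaperone that completes the β ring. It read 9.51, 9.24, 9.34 and 9.21 in deprived cells and 9.71, 9.66, 9.64 and 9.60 in control cells at 5 h, all deprived arrays below all controls. The difference was -0.32 (SE 0.09, limma adjusted p = 0.0737; 0.0043 with the replicate block). At 1, 2 and 3 h the differences were -0.23, -0.29 and -0.30, and at 16 h 0.12. Adrm1, a ubiquitin receptor of the cap, was not analysed here.

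**Figure D4:**
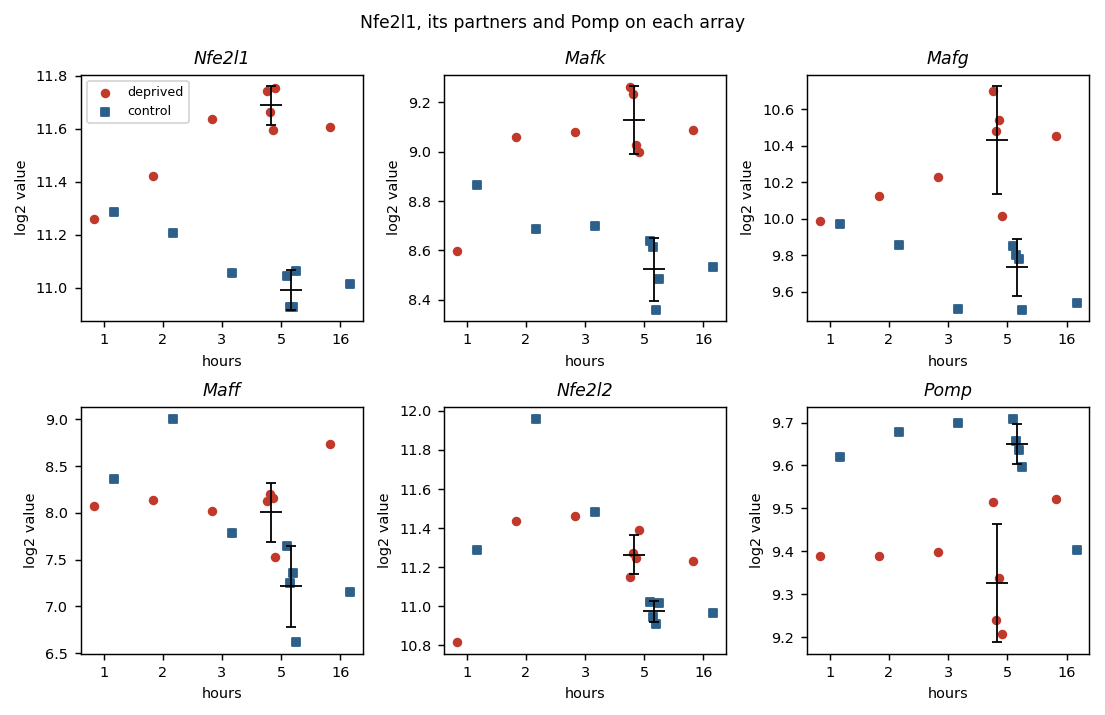
Log2 values of Nfe2l1, Mafk, Mafg, Maff, Nfe2l2 and Pomp on each array against hours; red circles are deprived and blue squares control arrays, and bars at 5 h are the mean ± SD of 4 arrays. The groups of Nfe2l1, Mafk, Mafg and Nfe2l2 at 5 h are apart with deprived arrays on top, and those of Pomp are apart with deprived arrays below.

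Genes that work beside PA28 in antigen processing were set next to Psme1 and Psme2. None of 12 measured members passed at 5 h, and with the replicate block 2 were lower, Irf1 and Calr, where 10% of all genes were. At 16 h 4 of the 12 were at least 0.5 lower on the deprived array, Tapbp by 0.93, Irf1 by 0.77, Calr by 0.67 and Pdia3 by 0.55, where 8.99% of all genes and 16% of genes above the median level were, while Tap1 was 0.16 higher and B2m 0.02 higher. Autophagy genes, which serve the other route of protein breakdown, had 6 of 33 members higher at 5 h (2.41% of all genes) and none lower, with a median of 0.10, and 13 higher (8.22% of all genes) and 1 lower (10%) with the block. The 6 were Gabarapl1, Sqstm1, Atg12, Atg2b, Atg13 and Wipi2. Gabarapl1 and Sqstm1 passed in every setting tried. The other 4 lost the call in several settings, among them leaving out deprived array 3 or any 1 of control arrays 1 to 3, with limma adjusted p up to 0.1185 for Atg12, 0.1024 for Atg2b, 0.124 for Atg13 and 0.1316 for Wipi2. The amino acid response list holds Atf4 and genes known to respond to it when amino acids run short. All its 18 members were called higher at 5 h, where 2.41% of all genes were, with a median of 1.52. The list was chosen with earlier results of these data known, so this count is no independent check. Differences between these lists and the proteasome genes were not tested.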

How the data were processed

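The labels' protocols describe biotin-labelled cDNA from 250 ng of total RNA of each of 16 samples, read on Affymetrix arrays. Log2 values deposited by the authors were used; per the submitters' processing notes RMA (robust multi-array average) and limma were run, and no versions are given there. The table's 35556 rows hold no missing value, and no columns are identical. No further normalization was applied.

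Rows were named through the platform annotation (21789 with 1 symbol, 1621 with several, 12146 with none). Only rows with 1 symbol were used, with symbols updated by gene identifier, and of several rows of a gene (999 genes) the one with the highest mean was kept. This left 19938 genes. All 45 members with 1 row had neighbouring rows of their own chromosome; 3 of the 5 members with several rows did not.

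Deprived and control groups of 5 h, with 4 arrays each, entered a linear model per gene (limma 3.58.1, R 4.3.3). Its two-sided p-values, from eBayes, were adjusted by Benjamini-Hochberg over all 19938 genes, with a threshold of 0.05. The other times, with 1 array per group, were read as differences without a test of any one time against 0, and their mean was tested with time as a factor. The 16 h difference was also set against that of 5 h, with the spread of the 5 h arrays. The number of arrays limits the precision, and no source used here tells if each sample came from its own culture. The p-values therefore cover only the spread among these arrays, possibly a technical one. Figures used Python 3.11.15 with matplotlib 3.10.9.

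The labels number the 5 h samples 1 to 4 in each group. Deviations from the group means correlated between same-numbered arrays with 0.354, 0.584, 0.467 and 0.896, so a further model took same-numbered arrays as pairs (the replicate block). Without number 4 the correlations were 0.193, -0.003 and -0.2.

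The members, gene lists and tests were chosen with earlier results of these data known. Members named with values were those past the threshold, the 5 highest and 5 lowest differences at 16 h, the 3 of each at 1, 2 and 3 h, the widest and smallest of each role at 5 h, and a fixed list of catalytic subunits, activators, the inhibitor and chaperones, with Psmd4 and Psmd14. Other members were named for groups that did not overlap or for a call under another setting. Alternatives tried were the replicate block, centring, another quantile normalization, genes above the median level, the mean of a gene's rows, a trended and robust prior, array weights, unnamed rows included, and leaving out arrays. The test of 16 h against 5 h, the values of other rows, leaving out Psmc3ip and Psme3ip1, and the repeated GAAA motif were added after seeing the data. The methods were tested on simulated data. Promoters came from a RefSeq table of GRCm38.p6.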

Additional observations from a re-analysis of the deposited data

Results flagged for a closer look

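Each proteasome gene's 4 deprived and 4 control arrays of 5 h were screened for a sample far from the others, by the gap to its nearest neighbour over the range of the group. In 18 of 100 groups this ratio passed the 95% critical value of Dixon's test for 4 samples. The nominal rate of about 1 in 20 is for independent groups, and these groups share the same arrays. The share of all genes that this screen flags was not computed here, so the count cannot be read as particular to proteasome genes. Array 4 was the highest array of both groups for 28.3% of all genes and the lowest for 39.8%. The far sample was array 4 in 17 of the 18, the highest in 16 of these, with 11 among the deprived and 7 among the control groups. They belong to 16 genes.

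In the α ring, the ratio was 0.861 in deprived and 0.872 in control cells for Psma2, and 0.835 in deprived and 0.893 in control cells for Psma6, with array 4 highest each time. Psma6 read 11.45 on deprived array 4 against 10.18 to 10.39 on the other deprived arrays, and 11.59 on control array 4 against 10.28 to 10.42 on the other controls. Among the ATPases, deprived array 4 was far above the others for Psmc1 (0.879), Psmc4 (0.844) and Psmc6 (0.876), and control array 4 for Psmc3 (0.897) and Psmc5 (0.931). Among the other 19S subunits and chaperones, deprived array 4 was far above for Psmd6 (0.903), Psmd7 (0.947) and Psmd10 (0.949), and control array 4 for Psmd1 (0.879) and Psmd13 (0.922). Psmd8 was the exception on array 4, with its lowest deprived value there (0.884), and Psmd9 was lowest on deprived array 3 (0.931) by a step of 8.26 against 8.29. Psme4 had its far value on control array 4 (0.93), and Psmc3ip, which codes for no proteasome part, on deprived array 4 (0.899). What sets array 4 apart was not tested.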

How the results depend on the processing

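The count of proteasome genes higher at 5 h was 1 in the reported fit and 2 with array weights (Psmc6 and Psmc2), and it ran from 0 to 1 with each array left out. The 0 arose on removing either array numbered 2, deprived or control. The count lower at 5 h was 0 in the reported fit, 7 with the replicate block that treats same-numbered arrays as pairs, 3 after another quantile normalization, 12 with array weights and 5 without both arrays numbered 4, and 0 with any single array left out. The same settings called more of all genes, 18.2%, 6.16%, 27.5% and 13.5% against 4.11%. The cause was not tested. The median proteasome difference at 16 h was 0.0402 with centred arrays, against -0.05 as reported. Of 1084 values of 64 named genes over 17 settings, 998 kept their side of the threshold, 48 passed it newly, 38 lost it, and 62 that passed in neither fit changed sign. For the mean over 1, 2, 3 and 16 h, no setting called a member, and leaving out 16 h called 35 genes. The single arrays at 1, 2, 3 and 16 h give no spread of their own.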
